A study of Schmidtea mediterranea with 24 samples.

Results

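In tails of the planarian *Schmidtea mediterranea*, 30 of 28742 measured transcripts were scarce without injection and higher on average after it. The average was taken over 8 libraries of worms injected with buffer or with extracellular vesicles (EVs). For dd_Smed_v6_793_0_1 and dd_Smed_v6_534_0_1 a rise with EVs was uncertain. The 30 were chosen on read counts scaled to the library total as CPM (counts per 1000000). A transcript was taken when its mean over the 4 uninjected libraries was under 1 CPM, and its mean over the 8 injected libraries was at least 1 CPM and at least 2 times the uninjected mean. Each injected library also had to lie above the uninjected mean, and a transcript whose EV-injected and buffer-injected ranges did not overlap was left out. Of 11492 transcripts with an uninjected mean under 1 CPM, 338 had an injected mean of at least 1 CPM, and 53 of those reached the ratio of 2. The condition on each injected library left 33, and the condition on overlapping ranges left 30.

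All animals were asexual wild-type worms of the clonal line CIW4, starved for 7 days. The 4 EV-injected pools received vesicles taken from tissue fragments 12 hours after amputation, at about 1 animal's vesicles per worm, mixed with a fluorescent dextran. The 4 buffer-injected pools received buffer with the same dextran, and both kinds were collected 24 hours after injection once worms holding little dextran had been removed. The 4 uninjected pools are labelled as untreated, so puncture, buffer, dextran and the removal of worms come together in any contrast with them. Each pool joined 5 tail fragments, cut behind the pharynx and without about 10% at the tip. Because 1 clonal line was used, the replicates differ in animals and not in genotype. Libraries held 19621187 to 30903133 counts.

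Planarians rebuild lost parts from stem cells spread through the body, and even a small puncture sets off transcription of wound-response genes in many of their tissues. EVs are membrane-bound particles that cells release and that can carry RNA and protein to other cells. An injection with buffer alone is therefore a treatment of its own, and the uninjected tail gives the level without any injection. Whether a member responds to the wound was not tested. The identifiers used here carry no gene names, so no role is given to any of the 30 transcripts, and cell type markers could not be looked up to check the tissue. Whether a member shares reads with a similar sequence elsewhere was not tested. In bulk RNA, more cells of a type and more RNA per cell cannot be told apart.

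Starting levels differed widely within the set. Over the 4 uninjected libraries together, members had from 1 to 89 counts. At most 8 counts were found for 6 members, 16 to 46 for 11 and over 46 for 13. A limit of 3 counts corresponds to 0.0971 to 0.153 CPM in a single library and to 0.0313 CPM over the 4 uninjected libraries. No member was at 0 in all 4 uninjected libraries, and 5 had at least 1 uninjected library at 0. After injection most stayed scarce, with injected means of 1.03 to 6.004 CPM and a median of 1.40 CPM. Only 3 members exceeded a mean of 3 CPM, and 21 were under 2 CPM. The ratio of injected to uninjected mean ran from 2.01 to 141 with a median of 3.83. It was at least 10 in 8 members, at least 4 in 15 and under 2.5 in 10. A ratio of at least 10 could rest on a few injected libraries, as the values of dd_Smed_v6_793_0_1 and dd_Smed_v6_534_0_1 below show.

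**Figure D1:**
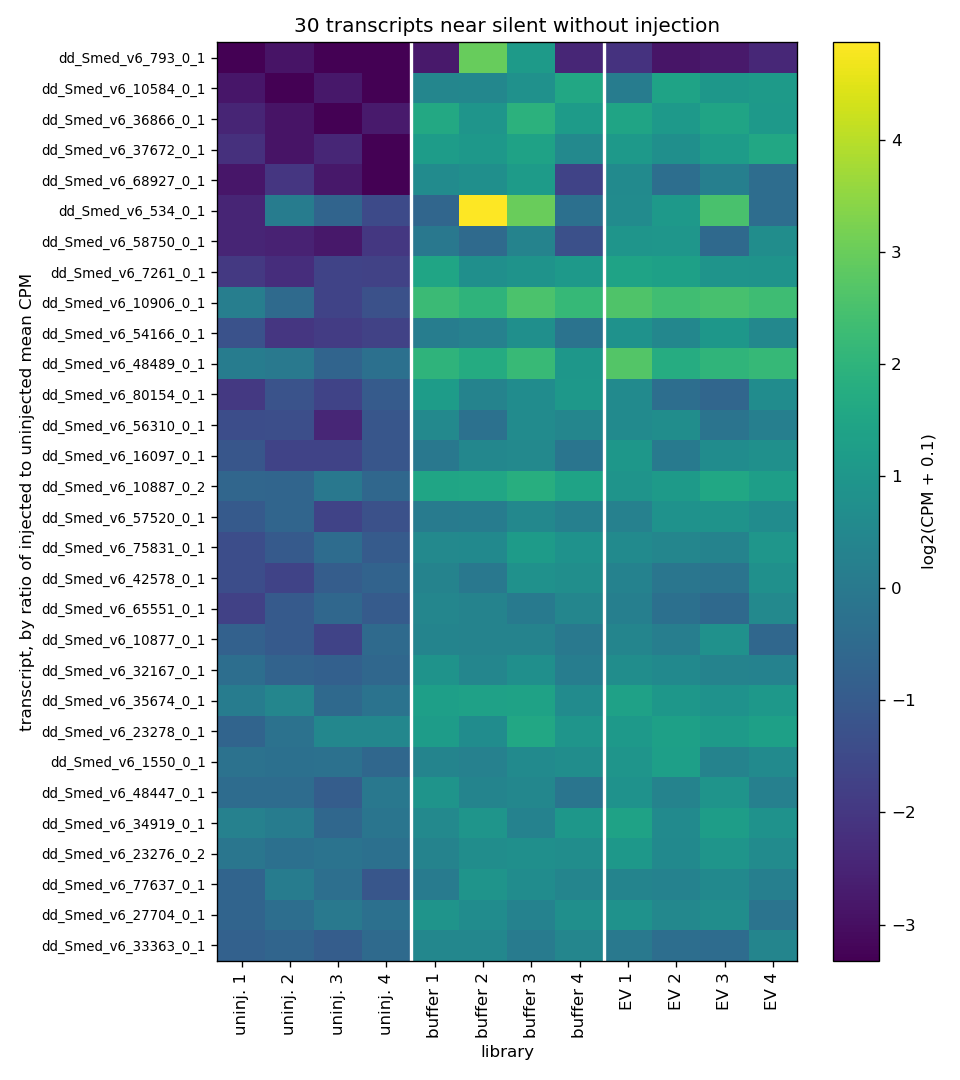
Heat map of log2(CPM + 0.1) for the 30 transcripts (rows, ordered by the ratio of injected to uninjected mean CPM, highest at the top) in the 12 libraries (columns, with white lines between the uninjected, buffer-injected and EV-injected groups). Apart from dd_Smed_v6_534_0_1, uninjected libraries are on average darkest in the upper rows, where ratios exceed 10. dd_Smed_v6_793_0_1 and dd_Smed_v6_534_0_1 are brightest in buffer-injected replicate 2.

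The highest ratio after that of dd_Smed_v6_793_0_1 was in dd_Smed_v6_10584_0_1, a transcript of 541 bases. It had 0.0398, 0, 0.0430 and 0 CPM in uninjected replicates 1 to 4, which is 2 reads in all. Buffer-injected replicates 1 to 4 had 1.25, 1.29, 1.65 and 2.91 CPM, and EV-injected ones had 0.977, 2.58, 1.89 and 2.09 CPM. All 8 injected libraries thus lay far above every uninjected one, while the injected groups overlapped. Summed counts were 177 with buffer and 180 with EVs against 2. Scaled to library totals, those give ratios of 85.2 (95% exact counting interval 23.2 to 709) and 91.2 (24.9 to 759). Here and below such intervals cover counting error only, and the upper bound is loose because so few uninjected reads were found.

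dd_Smed_v6_36866_0_1, of 292 bases, had the same shape at a higher level. Its uninjected libraries had 0.0796, 0.0361, 0 and 0.0510 CPM, 4 reads in all. With buffer it had 3.01, 1.81, 3.75 and 2.15 CPM, and with EVs 2.68, 2.01, 2.63 and 2.05 CPM. The lowest injected library was far above the highest uninjected one, and the EV-injected values fell inside the buffer-injected range. The ratio of summed counts was 66.0 (interval 25.5 to 244) with buffer and 55.7 (21.5 to 206) with EVs.

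dd_Smed_v6_37672_0_1, of 421 bases, rested on 6 uninjected reads, at 0.119, 0.0361, 0.0860 and 0 CPM. Buffer-injected libraries had 2.22, 1.98, 2.56 and 1.35 CPM and EV-injected ones 2.04, 1.59, 2.22 and 2.88 CPM. Both injected groups again overlapped each other and stood clear of the uninjected libraries. Ratios of summed counts were 32.9 (14.9 to 90.7) and 34.5 (15.6 to 94.99).

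dd_Smed_v6_7261_0_1, of 429 bases, had 16 uninjected reads, at 0.159, 0.108, 0.215 and 0.204 CPM. It had 2.73, 1.595, 1.75 and 2.03 CPM with buffer and 2.59, 2.43, 1.80 and 1.75 CPM with EVs. The rise was even, with a factor of 1.71 between the lowest and the highest injected library. The fitted log2 fold change was 3.51 ± 0.30 (SE) with buffer and 3.59 ± 0.30 with EVs.

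Of the 6 members with at most 8 uninjected reads, the other two that rose in both injected groups were uneven. dd_Smed_v6_68927_0_1, of 614 bases, had 0.0398, 0.144, 0.0430 and 0 CPM without injection and 1.43, 1.595, 2.17 and 0.211 CPM with buffer. EV-injected libraries had 1.40, 0.683, 1.06 and 0.655 CPM. Buffer-injected replicate 4 was the lowest of the injected libraries, 10.3 times below the highest, yet above all uninjected ones. dd_Smed_v6_58750_0_1, of 233 bases, had 0.0796, 0.0721, 0.0430 and 0.153 CPM without injection. It had 0.879, 0.604, 1.16 and 0.295 CPM with buffer and 1.83, 1.86, 0.601 and 1.53 CPM with EVs. EV-injected replicates 1, 2 and 4 were above all buffer-injected ones, and EV-injected replicate 3 lay among them.

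The sixth, dd_Smed_v6_793_0_1 of 248 bases, did not follow the description of the set. It had 0.0361 CPM in uninjected replicate 2, which is 1 read, and 0 CPM in the other uninjected libraries. Buffer-injected replicates 2 and 3 had 7.63 and 2.10 CPM, while replicates 1 and 4 had 0.0462 and 0.0844 CPM. EV-injected libraries had 0.127, 0.0379, 0.0462 and 0.0873 CPM, 7 reads in all. It therefore met the rule through 2 buffer-injected libraries, and its median over the 8 injected libraries was 0.0858 CPM, the only member median under 1 CPM. Without buffer-injected replicate 2 the rule no longer took it.

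dd_Smed_v6_534_0_1, of 581 bases, peaked in the same libraries. Buffer-injected replicates 1 to 4 had 0.555, 29.1, 7.96 and 0.718 CPM, and EV-injected ones had 1.44, 2.05, 5.59 and 0.655 CPM. Uninjected libraries had 0.0796, 0.974, 0.516 and 0.255 CPM, so only 5 of the 8 injected libraries were above the highest uninjected one. Its mean rose from 0.456 ± 0.389 CPM without injection to 9.57 ± 13.4 CPM with buffer and 2.43 ± 2.18 CPM with EVs (SD, n = 4 each). Its fitted log2 fold change with buffer was 4.28 ± 1.07 (SE), or 2.75 without buffer-injected replicate 2 and 5.04 without uninjected replicate 2. Against uninjected tails, the EV-injected change was 2.26 ± 1.27 (SE), or 1.498 without EV-injected replicate 3 and 3.03 without uninjected replicate 2.

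**Figure D2:**
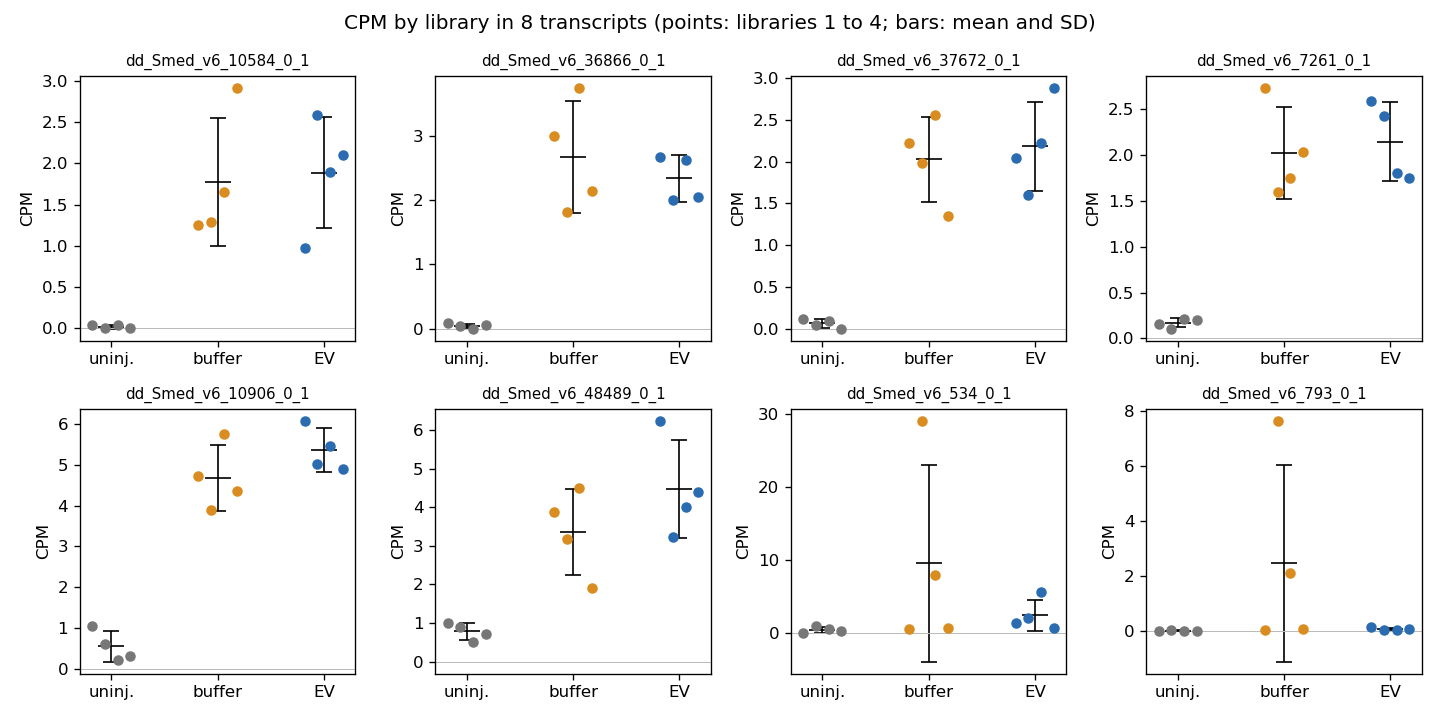
CPM (linear axes, separate for each panel) of 8 transcripts in the uninjected, buffer-injected and EV-injected groups. Points are libraries in replicate order, and black marks are the mean and SD of 4 libraries. In the first 6 panels all injected points lie above all uninjected ones, whereas dd_Smed_v6_534_0_1 and dd_Smed_v6_793_0_1 reach 29.1 and 7.63 CPM in buffer-injected replicate 2, with buffer-injected replicate 3 next.

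Other transcripts were also high in buffer-injected replicate 2. A list chosen after seeing the data holds the 34 transcripts with at least 5 CPM in buffer-injected replicate 2 that also exceeded, by 4 times or more, the average of replicates 1, 3 and 4. dd_Smed_v6_534_0_1 and dd_Smed_v6_793_0_1 are 2 of them. The others summed to 833 CPM in buffer-injected replicate 2 and 269 CPM in replicate 3, against 54.2 and 48.5 CPM in replicates 1 and 4. EV-injected replicates 1 to 4 had 86.6, 80.9, 190 and 64.8 CPM, and uninjected libraries had 25.8 to 75.4 CPM. The excess of buffer-injected replicate 2 over the rest of its group follows from how the list was chosen. No other library was put through the same selection, so whether replicate 2 is unusual in this was not tested. The order of buffer-injected replicate 2, buffer-injected replicate 3 and EV-injected replicate 3 is that of dd_Smed_v6_534_0_1. What part the source of these transcripts has in the values of both members was not tested.

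Some transcripts that the rule turned away were also high in buffer-injected replicate 2. Among the 53 transcripts that met both means and the ratio, 20 failed because some injected library was not above the uninjected mean. All 20 had their highest injected value in buffer-injected replicate 2, and 15 are on that list of 34. The list was chosen on height in that library, so this overlap is partly built in and is a description. One of the 15, dd_Smed_v6_531_0_1 of 545 bases, had no uninjected read and an injected mean of 4.42 CPM. That mean came from 26.0 and 8.74 CPM in buffer-injected replicates 2 and 3, and 3 injected libraries had no read.

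dd_Smed_v6_77637_0_1 was also highest in buffer-injected replicate 2, at 1.77 CPM, followed by buffer-injected replicate 3 at 1.49 CPM and EV-injected replicate 3 at 1.39 CPM. Its other injected libraries had 0.971 to 1.22 CPM, so the same order was found there at a far smaller spread. It rests on 137 reads with buffer and 112 with EVs, and whether it exceeds counting error was not tested. The other 27 members had their highest injected value in another library. All 30 together summed to 13.1 ± 0.824 CPM in uninjected, 60.3 ± 16.4 CPM in buffer-injected and 52.6 ± 4.04 CPM in EV-injected libraries (SD, n = 4 each). dd_Smed_v6_534_0_1 and dd_Smed_v6_793_0_1 made up 45.5% of that sum in buffer-injected replicate 2, 15.3% in buffer-injected replicate 3 and 10.4% in EV-injected replicate 3. Without them the sums were 12.6 ± 0.667, 48.3 ± 5.93 and 50.1 ± 3.98 CPM. In buffer-injected replicate 2 the remainder was 44.0 CPM, inside the 43.2 to 55.9 CPM of its group. These sums follow from the choice of members and are a description.

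**Figure D3:**
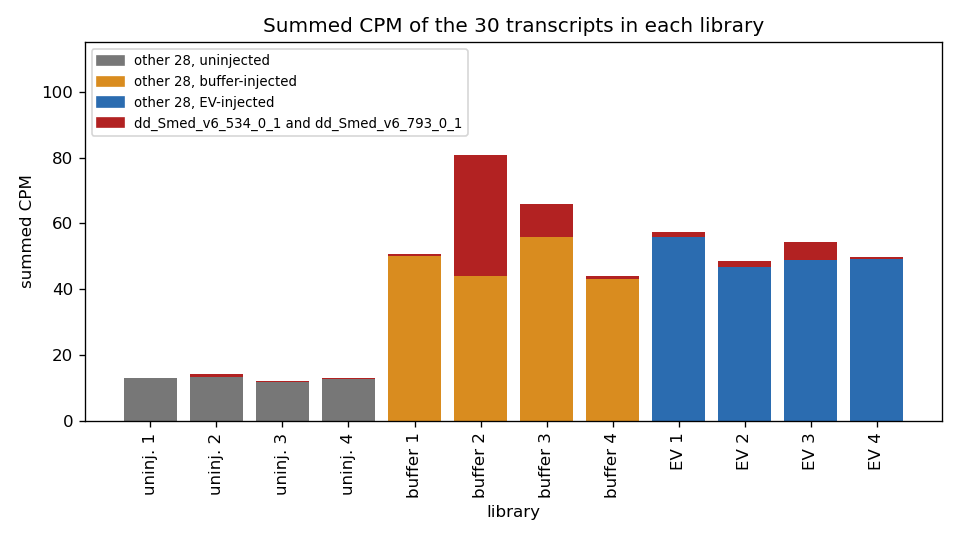
Summed CPM (linear axis from 0) of the 30 transcripts in each of the 12 libraries, with dd_Smed_v6_534_0_1 and dd_Smed_v6_793_0_1 in red on top of the other 28, coloured by group. Uninjected libraries sum to 12.2 to 14.2 CPM, injected ones to 44.0 to 80.7 CPM, and the red part is 36.7 CPM in buffer-injected replicate 2.

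Higher levels after injection were reached by a pair of members that started nearer to 1 CPM. dd_Smed_v6_10906_0_1, of 544 bases, had 1.03, 0.613, 0.215 and 0.306 CPM without injection. It had 4.72, 3.88, 5.76 and 4.35 CPM with buffer and 6.07, 5.01, 5.45 and 4.89 CPM with EVs. The injected libraries were close together, with an SD of 14.5% of their mean, the smallest of all members, while uninjected replicate 1 stood above the other uninjected ones. Its log2 fold changes were 3.02 ± 0.26 with buffer and 3.19 ± 0.26 with EVs (SE).

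dd_Smed_v6_48489_0_1 was the longest member, at 1262 bases. Uninjected libraries had 0.995, 0.902, 0.516 and 0.714 CPM, and the injected ones had 3.88, 3.19, 4.498 and 1.90 CPM with buffer and 6.24, 3.22, 4.02 and 4.41 CPM with EVs. Every injected library was above every uninjected one, with EV-injected replicate 1 highest and buffer-injected replicate 4 lowest. Log2 fold changes were 2.06 ± 0.29 and 2.44 ± 0.28 (SE).

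dd_Smed_v6_10887_0_2, of 340 bases, rose from 0.557, 0.541, 0.860 and 0.561 CPM to 2.68, 2.80, 3.40 and 2.62 CPM with buffer. EV-injected libraries had 1.78, 2.12, 2.82 and 2.31 CPM. Injected and uninjected libraries did not overlap, and 3 of the 4 EV-injected values were below all buffer-injected ones. Log2 fold changes were 2.16 ± 0.20 with buffer and 1.78 ± 0.20 with EVs (SE).

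Ratios of 4.49 to 6.37 were found in 4 further members that began with 20 to 27 uninjected reads. dd_Smed_v6_54166_0_1 had 0.144 to 0.318 CPM without injection, 0.760 to 1.59 with buffer and 1.29 to 1.89 with EVs. dd_Smed_v6_16097_0_1 had 0.215 to 0.358, 0.802 to 1.36 and 0.948 to 1.91 CPM in the same order. Both had a higher mean with EVs, and the ranges of the injected groups overlapped. dd_Smed_v6_56310_0_1 had nearly equal injected means, 1.20 ± 0.320 CPM with buffer and 1.19 ± 0.335 CPM with EVs, over 0.252 ± 0.116 CPM without injection (SD, n = 4 each).

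dd_Smed_v6_80154_0_1 was the fourth, with 0.159, 0.325, 0.215 and 0.408 CPM without injection. It had 2.22, 1.16, 1.49 and 1.98 CPM with buffer and 1.40, 0.683, 0.555 and 1.48 CPM with EVs. EV-injected replicates 2 and 3 were the lowest injected libraries, still above all uninjected ones. Log2 fold changes were 2.59 ± 0.37 with buffer and 1.85 ± 0.40 with EVs (SE).

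Between these and the weakest rises stood 5 members with ratios of 2.62 to 3.58. They were dd_Smed_v6_57520_0_1, dd_Smed_v6_75831_0_1, dd_Smed_v6_42578_0_1, dd_Smed_v6_65551_0_1 and dd_Smed_v6_10877_0_1, with uninjected means of 0.359 to 0.432 CPM and injected means of 1.04 to 1.53 CPM. In dd_Smed_v6_57520_0_1 the injected values were 0.971, 0.992, 1.33 and 1.10 CPM with buffer and 1.10, 1.71, 1.76 and 1.48 CPM with EVs, over at most 0.541 CPM without injection. In dd_Smed_v6_10877_0_1 EV-injected replicate 4, at 0.567 CPM, fell below uninjected replicate 4, at 0.612 CPM. The other 4 had every injected library above every uninjected one.

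The remaining 10 members had ratios of 2.01 to 2.44 and started at uninjected means of 0.515 to 0.960 CPM, so they are better described as low transcripts that about doubled. Values just inside and outside the limits show how narrow some choices were. dd_Smed_v6_23278_0_1 was just inside the ceiling, at an uninjected mean of 0.960 CPM and an injected mean of 2.18 CPM, and dd_Smed_v6_328_0_1 was just outside, at 1.01 and 3.10 CPM. dd_Smed_v6_33363_0_1 was the lowest member on both other measures, with an injected mean of 1.03 CPM and a ratio of 2.01.

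Just outside were dd_Smed_v6_58553_0_1, at an injected mean of 0.9997 CPM, and dd_Smed_v6_36578_0_3, at a ratio of 1.97. The former rose from 0.121 CPM, more steeply than most members. In dd_Smed_v6_27704_0_1 the lowest injected library, EV-injected replicate 4 at 0.785 CPM, was 1.11 times the uninjected mean, and in dd_Smed_v6_1446_0_1, left out, the lowest was 0.960 times it. With CPM scaled by trimmed mean of M values (TMM) in place of the library total, 25 transcripts were chosen, all of them members. The 5 lost were dd_Smed_v6_23276_0_2, dd_Smed_v6_27704_0_1, dd_Smed_v6_33363_0_1, dd_Smed_v6_34919_0_1 and dd_Smed_v6_77637_0_1.

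Values per library show how close these members lay to their starting level. dd_Smed_v6_23278_0_1, of 349 bases, had 0.517, 0.757, 1.29 and 1.27 CPM without injection, 2.22, 1.47, 2.91 and 1.82 CPM with buffer and 2.04, 2.39, 2.13 and 2.44 CPM with EVs. dd_Smed_v6_33363_0_1, of 584 bases, had 0.478, 0.541, 0.430 and 0.612 CPM without injection, 1.29, 1.29, 0.971 and 1.27 CPM with buffer and 0.892, 0.683, 0.647 and 1.22 CPM with EVs. In both, every injected library was above every uninjected one, by a narrow margin. In dd_Smed_v6_27704_0_1, of 852 bases, uninjected libraries had 0.517, 0.685, 0.903 and 0.714 CPM, so EV-injected replicate 4 lay within their range and the other 7 injected libraries, at 1.13 to 1.80 CPM, above it. Of the other 7 members with ratios under 2.5, dd_Smed_v6_35674_0_1 had the highest injected mean, at 2.20 ± 0.518 CPM with buffer and 2.01 ± 0.322 CPM with EVs over 0.906 ± 0.287 CPM without injection (SD, n = 4 each). The rest were dd_Smed_v6_32167_0_1, dd_Smed_v6_1550_0_1, dd_Smed_v6_48447_0_1, dd_Smed_v6_34919_0_1, dd_Smed_v6_23276_0_2 and dd_Smed_v6_77637_0_1, with buffer-injected means of 1.28 to 1.55 CPM and EV-injected means of 1.19 to 1.98 CPM.

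Injected and uninjected libraries did not overlap at all for 25 members, counting 24 of the 29 that entered the fit across all transcripts. Over the 21149 transcripts tested, all injected libraries were above every uninjected one for 12.6%. The 5 exceptions were dd_Smed_v6_534_0_1 and, with 1 injected library inside the uninjected range, dd_Smed_v6_10877_0_1, dd_Smed_v6_48447_0_1, dd_Smed_v6_77637_0_1 and dd_Smed_v6_27704_0_1. All 8 injected libraries were at least 1 CPM for 13 members and at least 2 times the uninjected mean for 17. Since the rule used these values, the counts describe the set and test nothing.

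The fit, edgeR's quasi-likelihood test with Benjamini-Hochberg adjustment over 21149 transcripts, called 29 of 29 tested members higher with buffer than without injection, where 12.4% of all tested transcripts were called higher. Against uninjected tails, EV-injected libraries had 27 of 29 members called higher, where 13.9% of all were. Among the 3899 tested transcripts that also had an uninjected mean under 1 CPM, these shares were 3.41% and 3.28%. The 2 members not called with EVs were dd_Smed_v6_534_0_1 and dd_Smed_v6_33363_0_1. dd_Smed_v6_793_0_1 was not tested, because too few libraries held enough reads of it for the filter.

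The members' median log2 fold change was 1.90 with buffer and 1.78 with EVs, and over all tested transcripts it was below 0.01 in size in both. Both comparisons share the uninjected libraries. The rule chose members on this contrast, so nothing is read from these counts and no p-value is given for a single member. The authors' deposited table lists 29 of the 30, and at a false discovery rate under 0.05 it calls 29 with buffer and 27 with EVs against uninjected tails. The share it calls over all its transcripts was not taken. It rests on the same libraries, so these counts are no separate evidence.

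**Figure D4:**
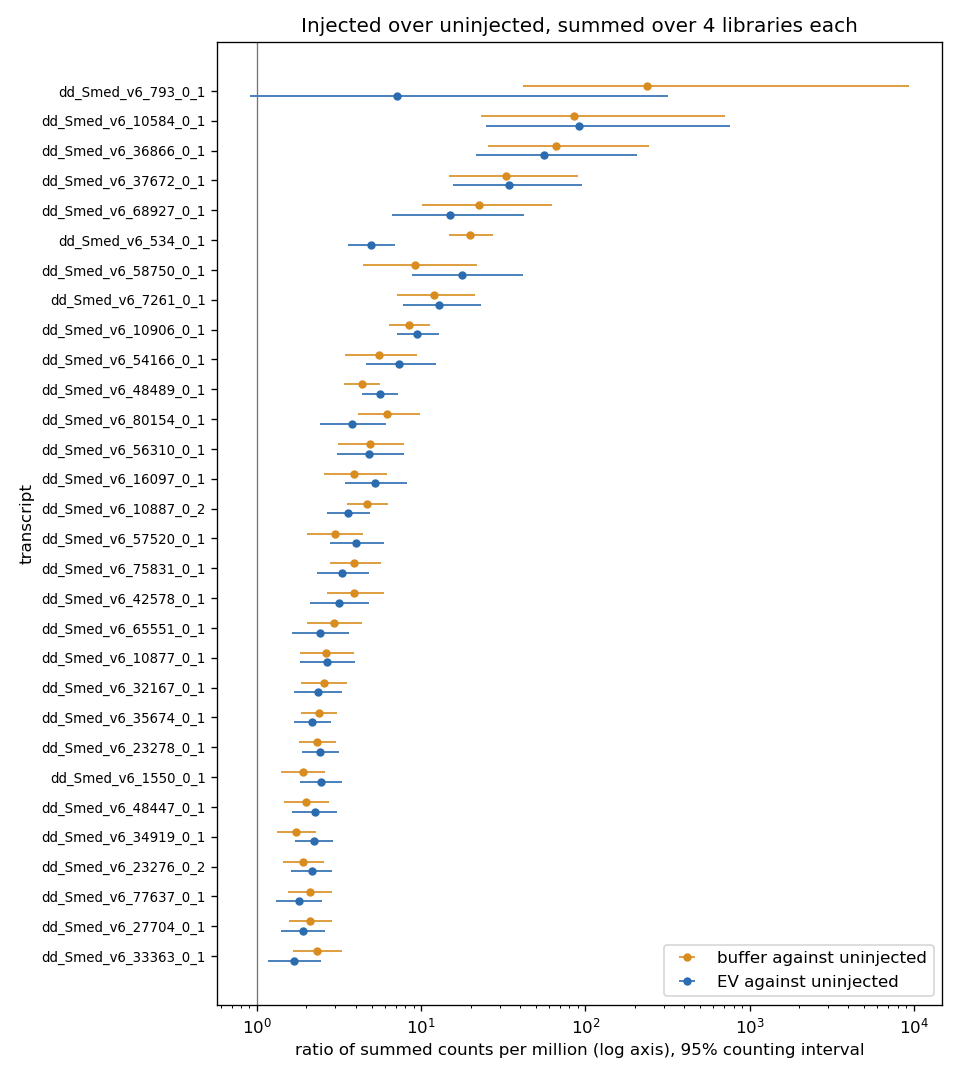
Ratio of summed counts scaled to library totals (log axis) in buffer-injected (orange) and EV-injected (blue) over uninjected libraries, for each of the 30 transcripts in order of their overall ratio. Bars are exact 95% counting intervals, and the grey line marks a ratio of 1. Intervals widen upward as uninjected reads become few, and those of both groups overlap except for dd_Smed_v6_534_0_1, at 19.9 with buffer and 4.93 with EVs.

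The EV and buffer values below are a description, because the rule had removed every transcript whose EV-injected and buffer-injected ranges were separate. The EV-injected mean was higher in 15 and lower in 15, and the median log2 difference was −0.0042 over the 29 tested, close to the −0.0031 over all tested transcripts. The fit called 0 of 29 (edgeR), where 0.0993% of all tested transcripts were called. At so low a share, 0 of 29 says little about the members. DESeq2 also called 0, and its share over all transcripts was not taken. At an unadjusted p under 0.05 there were 5 of 29, where 10.1% of all tested transcripts reached it.

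A missed threshold does not show equal levels, so the intervals are given. The 95% interval of the EV to buffer ratio lay within 2-fold either way for 25 of 29 members, and for 92.6% of all tested transcripts. It did not for dd_Smed_v6_534_0_1, dd_Smed_v6_58750_0_1, dd_Smed_v6_80154_0_1 and dd_Smed_v6_68927_0_1. dd_Smed_v6_58750_0_1 had a ratio of 1.92 (interval 1.16 to 3.17), the highest of the set. dd_Smed_v6_80154_0_1 had 0.598 (0.393 to 0.908) and dd_Smed_v6_33363_0_1 0.710 (0.514 to 0.981). dd_Smed_v6_10887_0_2 had 0.768 (0.609 to 0.969). For dd_Smed_v6_534_0_1 it was 0.248 (0.0751 to 0.818), with buffer-injected replicates 2 and 3 at 29.1 and 7.96 CPM behind it.

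The 3 transcripts left out only because their EV and buffer ranges were separate went both ways. dd_Smed_v6_158_0_1, of 418 bases, had 0.739 ± 0.153 CPM without injection, 3.14 ± 0.923 with buffer and 4.70 ± 0.344 with EVs (SD, n = 4 each). dd_Smed_v6_47366_0_1, of 230 bases, had 0.368 ± 0.0277, 1.46 ± 0.101 and 1.84 ± 0.207 CPM in the same order. dd_Smed_v6_41752_0_1, of 423 bases, went from 0.414 ± 0.240 CPM without injection to 1.52 ± 0.193 with buffer and a lower 0.970 ± 0.238 with EVs. Since these 3 were picked on their EV and buffer values, their difference is a description and no p-value is given for it.

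Per kilobase of transcript the order of levels changed, since members ran from 233 to 1262 bases. On TMM-scaled CPM per kilobase, dd_Smed_v6_534_0_1 came first over the 8 injected libraries at 10.3, a value that buffer-injected replicate 2 dominates. It was followed by dd_Smed_v6_10906_0_1 at 9.13, dd_Smed_v6_36866_0_1 at 8.53 and dd_Smed_v6_10887_0_2 at 7.49. dd_Smed_v6_23278_0_1 followed at 6.18, with dd_Smed_v6_793_0_1, dd_Smed_v6_37672_0_1 and dd_Smed_v6_57520_0_1 at 4.93 to 5.10. The longest member, dd_Smed_v6_48489_0_1, had 3.07. dd_Smed_v6_10584_0_1, with the highest ratio after dd_Smed_v6_793_0_1, was at 3.36.

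Length was not part of the rule. The median member had 542.5 bases, and 3 of 30 exceeded 1000 bases. All transcripts with an uninjected mean under 1 CPM had a median of 391 bases, and the 338 of them that reached 1 CPM after injection had 609.5. Over all tested transcripts the median was 1107 bases. The members were thus short compared with tested transcripts in general, and lay between the other sets of scarce transcripts. No member shared the component number in its identifier with another transcript, as 347 of all 28742 did.

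Counts of the members came from both sequencing runs in proportion. Run 2 held 34.4% to 40.5% of the members' counts in a library, against 36.0% to 39.7% of all counts, and in all 12 libraries the exact 95% interval of the former held the latter. dd_Smed_v6_10584_0_1 had 0 uninjected reads in run 1 and 2 in run 2, and dd_Smed_v6_36866_0_1 had 4 and 0. The peak of dd_Smed_v6_534_0_1 in buffer-injected replicate 2 was 27.8 CPM in run 1 and 31.1 CPM in run 2.

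In the injected groups, the median member varied more between replicates than the median transcript with an injected mean in the same range. The SD of the median member was 25.1% of its mean with buffer, 26.7% with EVs and 37.7% without injection. Counting alone would give 16.6%, 16.8% and 31.4%. In 5860 transcripts with injected means in the members' range the median was 14.7% with buffer and 15.0% with EVs, with 13.0% and 13.2% from counting. The highest injected value of a member was in buffer-injected replicate 3 for 7 members and in buffer-injected replicate 1 for 6. The lowest was in buffer-injected replicate 4 for 9, in buffer-injected replicate 2 for 6 and in EV-injected replicate 3 for 5. Such counts over all transcripts were not taken, so these are not read as particular to the members.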

How the data were processed

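RNA from 12 pools of tail fragments was sequenced as 24 samples, 2 runs for each library. The authors deposited read counts per transcript as whole numbers, with transcript lengths per the file headers. They also deposited log2 fold changes with a p-value and false discovery rate for 3 comparisons. The series' design text names BBDuk, Bowtie2 and edgeR, and the submitters' processing notes add versions (FastQC 0.11.5, Bowtie2 2.3.1, Subread 1.6.3 with featureCounts, edgeR 4.0.16). For strand setting, multi-mapping reads and reference the sources used here give nothing, so transcripts that share sequence are uncertain.

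Runs were summed, 1 replicate per library, and equalled the deposited merged counts in all 344904 cells. Columns of other samples numbered 0. The fit used R 4.3.3 and edgeR 4.0.16 (filterByExpr, TMM, quasi-likelihood F test, 3 groups, no covariate) on all transcripts, with a call at an adjusted p under 0.05. It was tested on simulated data whose replicate spread beyond counting was smaller than that of the median member. That test therefore does not cover transcripts as variable as the members. The filter kept 21149 of 28742 transcripts and 29 of 30 members. SE were derived from the F statistic. Members, lists and tests were chosen with earlier results of these data known.

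Transcripts were named by rank: the 8 highest per kilobase, the 6 highest ratios, the 4 widest spreads, the neighbours of each limit and the 3 left out for separate EV and buffer ranges. Members at 0 in every uninjected library and transcripts of the same component were to be named too, and there were none. Other members were added to account for all. Marker lists by gene name could not be applied. Alternatives were DESeq2 1.42.0 and its size factors, other filters, a replicate block, single runs, other limits in the rule and each library left out. Figures used matplotlib 3.10.9.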

Additional observations from a re-analysis of the deposited data

Results flagged for a closer look

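Each member and their sum were checked in every group for a library far from the other 3, which made 93 checks. Chance marks about 1 in 20, or 4.65, and 4 were marked. dd_Smed_v6_10877_0_1 had 0.886 CPM in buffer-injected replicate 4, against 1.16 to 1.20 CPM in the other buffer-injected libraries. dd_Smed_v6_10887_0_2 had 0.860 CPM in uninjected replicate 3, against 0.541 to 0.561 CPM. dd_Smed_v6_33363_0_1 had 0.971 CPM in buffer-injected replicate 3, against 1.27 to 1.29 CPM. dd_Smed_v6_793_0_1 had 0.0361 CPM in uninjected replicate 2, a single read, against 0 in the others. The peaks of dd_Smed_v6_534_0_1 and dd_Smed_v6_793_0_1 in buffer-injected replicate 2 were not marked, because buffer-injected replicate 3 was raised as well.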

How the results depend on the processing

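The rule chose 30 transcripts, and 17 with a ceiling of 0.5 CPM on the uninjected mean, 9 with a floor of 2 CPM on the injected mean and 15 with a minimum ratio of 4. With each library left out in turn it chose 24 to 38. Run 1 alone chose 34, of which 23 were members, and run 2 alone chose 44, of which 22 were. Without buffer-injected replicates 2 and 3, a setting added after seeing the data, it chose 24, of which 21 were members. Members called with buffer against uninjected tails, 29, numbered 19 with run 2 alone, which is shallower and left 26 to test, and 27 to 29 with a library left out. With EVs, 27 were called, 23 with run 2 alone and 25 to 27 with a library left out. The shares of all tested transcripts called under these settings were not taken. Whether fewer calls are particular to the members therefore cannot be told. The losses with a library left out were in dd_Smed_v6_34919_0_1 and dd_Smed_v6_48447_0_1 with buffer, and in dd_Smed_v6_77637_0_1 and dd_Smed_v6_27704_0_1 with EVs. Between EVs and buffer 0 were called under every alternative, with a range of 0 to 0 when a library was left out. The main fit called only 0.0993% of all tested transcripts there, and shares under the alternatives were not taken. Of 454 checks of fold changes of 12 named members, 443 kept their call, 8 lost it, 3 gained it and none reversed.

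Replicate numbers are not stated to pair libraries. Deviations of libraries with the same number correlated at −0.0204 to 0.139, over 0.1 in 1 of 12 pairs. Between libraries with different numbers the values were -0.153 to 0.124. So few and so weak correlations cannot settle whether libraries were paired. The replicate block gave 29 member calls with buffer and 28 with EVs, the gain being dd_Smed_v6_534_0_1, and 0 between EVs and buffer. Its shares over all tested transcripts were not taken. With at most 8 uninjected reads in 6 members, a single read is a large part of their uninjected value.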

Other observations

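The same conditions with the groups exchanged, from an injected mean under 1 CPM to an uninjected mean of at least 1 CPM and at least 2 times the injected one, found 24 transcripts among 11495. Their ratios ran from 2.05 to 4.18 with a median of 2.57, and 1 reached 4, against 15 of the 30 that rose. The 2 counts rest on means over different numbers of libraries and were not compared by a test. The steepest was dd_Smed_v6_21015_0_1, at 1.93 CPM without and 0.462 CPM with injection.

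Of all transcripts, 917 have a component number up to 1000 in the identifier, with a median uninjected level of 217 CPM. Only 16 of them were under 1 CPM, and 8 of those 16 are on the list of 34 transcripts high in buffer-injected replicate 2. Of all 11492 transcripts with an uninjected mean under 1 CPM, 21 are on that list. The 8 include both dd_Smed_v6_534_0_1 and dd_Smed_v6_793_0_1. Because the list was chosen after seeing the data, these counts are a description, and a link with the component number was not tested. In 26 of the 34, the highest injected library after replicate 2 was buffer-injected replicate 3.

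Over the 8 injected libraries, group-centred log2(CPM + 0.1) correlated with a median r of 0.10 over 435 pairs of members, against 0.0145 over pairs of the 5860 transcripts in the same range of means. Above 0.8 were 2.99% of member pairs and 1.70% of the others. The closest pair was dd_Smed_v6_33363_0_1 and dd_Smed_v6_65551_0_1 (r = 0.968, n = 8), which were low together in EV-injected replicates 2 and 3. These are descriptions over libraries whose preparation and sequencing were shared.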
